A study of Saccharomyces cerevisiae with 44 samples.

Results

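The genes described here are 44 genes of amino acid biosynthesis other than arginine, out of 6692 features counted in the yeast Saccharomyces cerevisiae. They were taken by systematic name as GCN4 and the LYS, HIS, LEU, ILV, BAT, TRP, ARO, SER, THR and HOM enzyme genes. This rule uses no measured values, but earlier results of these data were known when the genes were chosen. By branch they are GCN4, 7 lysine genes, 7 histidine genes, 11 genes of leucine, isoleucine and valine, 9 of tryptophan and the shared aromatic pathway, 4 of serine and 5 of threonine and homoserine. All 44 passed the filter on low counts, which kept 6344 of the 6692 features.

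Wild-type cells of the W303 background grew at 30 °C to an optical density near 0.3 and then received a replication inhibitor at its IC50 or the matching vehicle. In the rich medium YEPD the groups were HU at 50 mM and MMS at 0.002%, both with the water vehicle C0, and CPT at 100 µg/mL with the 1 N NaOH vehicle CC. In SC, a synthetic medium, they were AD at 50 µg/mL with the 2% acetone vehicle CA, DOX at 25 µg/mL with the water vehicle CD, and MTX at 150 µg/mL with the 0.1 N NaOH vehicle CM. HU, MMS, CPT, DOX and MTX are the usual abbreviations of hydroxyurea, methyl methanesulfonate, camptothecin, doxorubicin and methotrexate, and the labels spell out none of them, nor AD. Each of the 11 groups held 2 cultures, each sequenced as 2 technical replicates, and the medium, vehicle and inhibitor of a group cannot be told apart except through its own vehicle. W303 strains usually carry mutations in LEU2, HIS3 and TRP1, so that they depend on the medium for these amino acids, and the labels do not list markers.

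As background, yeast makes most amino acids from a few central metabolites. When uncharged tRNA builds up, the kinase Gcn2 slows general translation and by that raises translation of the transcription factor Gcn4, which binds TGACTCA and closely related sites before many of these enzyme genes. The GCN4 mRNA level measured here is therefore not the level of the Gcn4 protein. Pathway factors act on top of this: Leu3, activated by the leucine precursor isopropylmalate, binds before leucine and branched-chain genes, and Lys14, activated by a lysine intermediate, binds before lysine genes.

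Letters of these sites were searched on both strands in the 500 bases before the start codon. TGACTC, the core of the Gcn4 site and also the site of Bas1, was found for 29 of the 44 genes (65.9%) and for 12.7% of 6000 windows of all genes. The longer TGACTCA, which contains it, was found for 20 genes and 4.0% of windows. The Leu3 letters CCGNNNNCGG stood before 8 genes and 3.28% of windows, and the Lys14 letters TCCNNNGGA before 7 genes and 5.9% of windows. A match is a description of the letters and not a bound site. The stretches below come from some of the genes with such letters that rose or fell in the results. TRP5, SER3, LYS20, ARO3, GCN4, HIS2, ARO2 and HOM6, which also rose or fell, have none of these letters in their windows. Each stretch runs 5′ to 3′ on the coding strand and is from the RefSeq R64 genome (sacCer3). The matched letters of TGACTC (or GAGTCA on the other strand), Leu3 or Lys14 are in capitals.
HIS4 (chrIII:68521-68595, minus strand): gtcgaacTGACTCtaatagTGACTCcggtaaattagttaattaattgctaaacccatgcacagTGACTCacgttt
LEU1 (chrVII:478824-478960, minus strand): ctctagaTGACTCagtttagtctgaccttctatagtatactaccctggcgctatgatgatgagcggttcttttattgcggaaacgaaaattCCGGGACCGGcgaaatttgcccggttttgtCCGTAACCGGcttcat
BAT1 (chrVIII:517354-517401, plus strand): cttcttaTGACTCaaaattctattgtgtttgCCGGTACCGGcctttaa
LEU9 (chrXV:522743-522782, plus strand): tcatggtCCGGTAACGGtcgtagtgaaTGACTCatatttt
LYS1 (chrIX:420859-420991, minus strand): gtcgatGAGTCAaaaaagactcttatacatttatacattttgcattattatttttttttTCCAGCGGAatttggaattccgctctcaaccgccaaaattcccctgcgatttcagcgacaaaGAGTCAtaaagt
LYS9 (chrXIV:715536-715620, minus strand): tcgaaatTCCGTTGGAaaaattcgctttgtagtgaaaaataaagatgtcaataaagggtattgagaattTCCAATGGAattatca
HIS4, LEU1, BAT1 and LEU9 share TGACTC, and the last 3 also share the Leu3 letters. LYS9 has the Lys14 letters and no TGACTC in its window, while LYS1 has both.

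Library totals ranged from 6.82 to 15.08 M counts and culture totals from 16.73 to 28.8 M. Levels are given as CPM, counts scaled to a common library total, which are relative to the other RNAs of the same library, so that a change in RNA per cell cannot be seen. The second technical replicate of CM culture 2 stood apart and has labels that disagree on its number: across all features tested the SD of the log2 ratio between technical replicates was 0.42 in that culture and 0.2 in CM culture 1. In MTX, technical replicates of 1 culture differed more by the same measure (SD 0.4 and 0.37) than same-numbered libraries of both cultures (0.27 and 0.31). A list of 10 glucose-repressed genes, read as a sign of culture state, differed between culture 1 and culture 2 by a median log2 of 1.07 in CA, -0.7 in CC and -0.6 in CPT, and their part in the results was not tested.

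Per kilobase of coding length, averaged over the 5 vehicles, ILV5, the reductoisomerase shared by isoleucine and valine synthesis, had the highest level of the 44 genes (1168 CPM per kb). HOM2, aspartate semialdehyde dehydrogenase, followed at 920.4 and LEU1, isopropylmalate isomerase, at 697 CPM per kb. LYS1, the enzyme of the last step to lysine, had the lowest level (12.8), below HIS3 (20.0) and TRP1 (21.3 CPM per kb), both of which are usual W303 marker genes. TRP1 overlaps another annotated feature over 39.3% of its length, and reads in that stretch were not counted for it. In 6 other genes such overlap covered at most 12.6%. The vehicle means of ILV5 ranged from 963 to 1349 CPM per kb and those of LYS1 from 11.2 to 13.8, whereas LEU1 ranged from 341 in YEPD to 942 in SC.

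Over the 6 treatments 26 of the 44 genes rose in at least 1 and 9 fell in at least 1, against 29.6% and 29.0% of all features. LYS1, HIS4 and SER1 rose in 3 or more treatments, and LEU9 fell in 3. ARO3 alone was called in both directions, higher in HU and lower in DOX and MTX. In none of the 6 treatments were 10 genes called: LYS4, HIS1, HIS3, HIS7, LEU4, ILV1, ILV3, TRP1, TRP4 and ARO4. The shares of all features called in several treatments, in both directions or in none are not given here. These counts can therefore not be set against a background. A gene is called at an adjusted p under 0.05 in the quasi-likelihood test of edgeR over all 6344 features, and all log2 differences below are treatment minus its own vehicle, with 2 cultures a group.

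**Figure D1:**
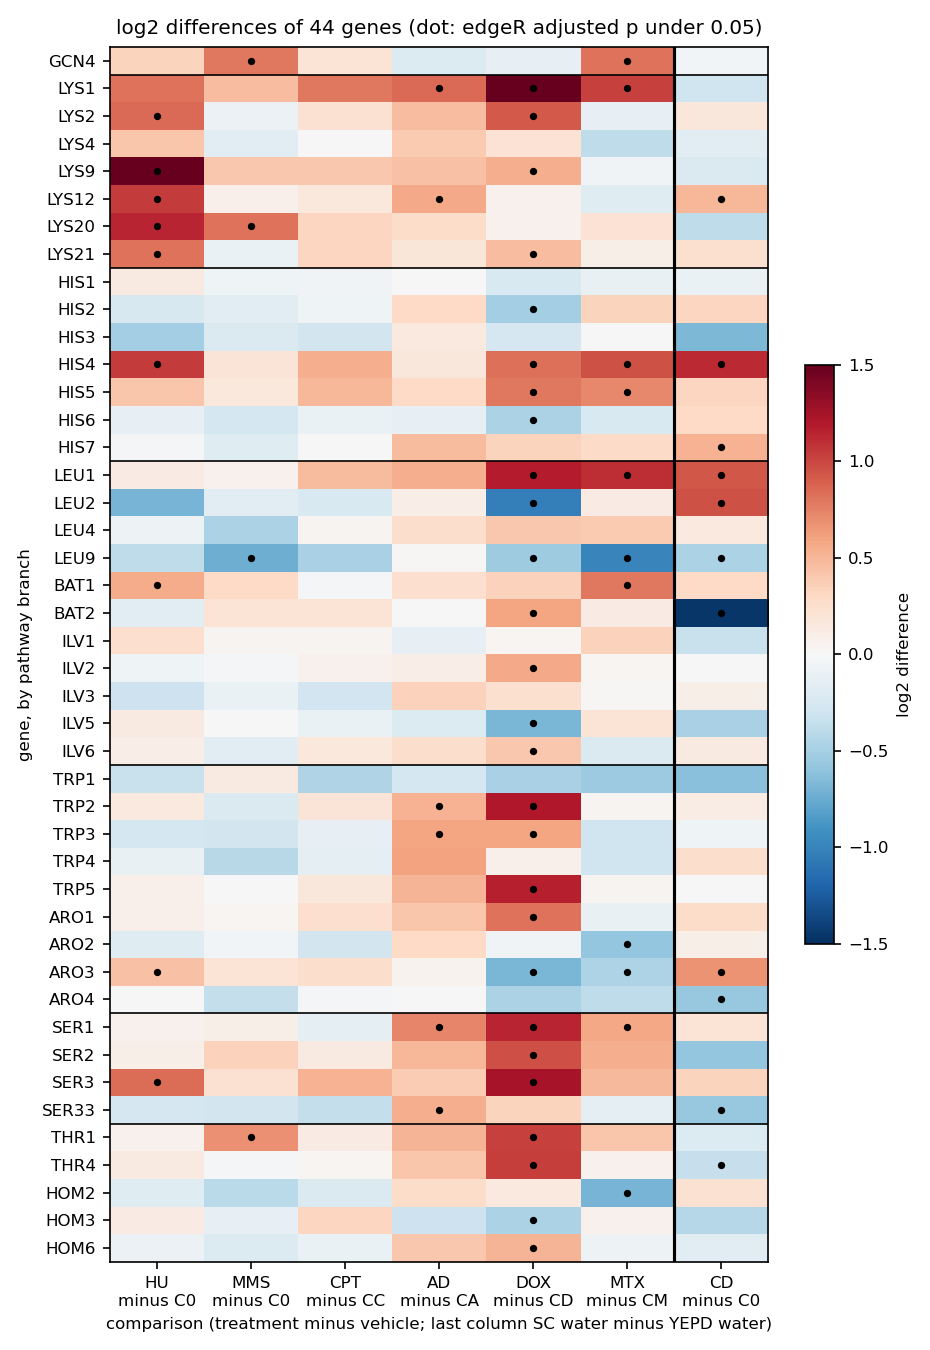
The colour gives the log2 difference of each of the 44 genes (rows, by branch) in the 6 treatments against their vehicles and in SC water against YEPD water (columns), and a dot marks an edgeR adjusted p under 0.05. The lysine rows are red in HU, where 5 of 7 have dots, while DOX has dots in both colours, 20 higher and 7 lower.

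HU, an inhibitor of ribonucleotide reductase, went with higher mRNA levels of lysine genes. Of the 7 lysine genes 5 rose and none fell, and all 7 had a positive log2 difference (median 0.85, from 0.42 to 1.5). Over all branches 9 of the 44 genes rose (20.5%) and none fell, against 2.63% of all features higher and 0.93% lower. At an unadjusted p under 0.05 there were 12 higher and 4 lower, against 8.31% and 7.74% of all features. DESeq2 called 10 higher and 0 lower, against 3.89% and 1.78%. The median log2 difference of the 44 genes was 0.08 and that of all features -0.02.

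LYS9 (YNR050C, chromosome XIV, 714048 to 715388), the saccharopine dehydrogenase that makes saccharopine, was at 297 and 395 CPM in the 2 C0 cultures and at 883 and 1071.5 CPM in HU. The HU cultures lay above both C0 cultures and above every other culture of the series. Its log2 difference was 1.5 (SE 0.14; edgeR adjusted p = 1.72e-05). LYS12, homoisocitrate dehydrogenase, was at 246 and 202 CPM in C0 and at 499 and 432 in HU, a log2 difference of 1.05 (SE 0.14). LYS2, aminoadipate reductase, was at 437 and 554 CPM in C0 and at 871 and 913 in HU (log2 0.85, SE 0.13). Neither gene's groups overlapped.

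The homocitrate synthase pair, which catalyses the first step to lysine, rose as well. LYS20 was at 26.3 and 39.4 CPM in C0 and at 69.9 and 74.4 in HU (log2 1.14, SE 0.2; edgeR adjusted p = 0.00412). LYS21 was at 70.4 and 65.1 CPM in C0 and at 138 and 101 in HU (log2 0.82, SE 0.17; edgeR adjusted p = 0.0122). Their coding sequences are 91.6% identical, so reads can be shared between them and both values are uncertain. The remaining lysine genes, LYS1 (log2 0.81, edgeR adjusted p = 0.0581) and LYS4 (log2 0.42, edgeR adjusted p = 0.104), homoaconitase, were not called.

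Outside the lysine branch 4 genes rose in HU. HIS4 (YCL030C, chromosome III, 65934 to 68333), a multifunctional histidine enzyme, was at 212 and 206 CPM in C0 and at 436 and 430.2 in HU (log2 1.05, SE 0.18; edgeR adjusted p = 0.00311). SER3, a phosphoglycerate dehydrogenase at the entry of serine synthesis, went from 328 and 353 to 590.4 and 629 CPM (log2 0.84, SE 0.19). BAT1, the mitochondrial branched-chain aminotransferase, was at 0.56 (SE 0.14) and ARO3, an entry enzyme of the aromatic pathway, at 0.44 (SE 0.12) on the log2 scale. In each of the 4 genes both HU cultures lay above both C0 cultures. The other 6 histidine genes were not called, and LEU2 was at -0.7 (SE 0.3; edgeR adjusted p = 0.265).

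The number called in HU fell to 4 without C0 culture 1 and to 5 without HU culture 1, and was 6 without C0 culture 2 or HU culture 2. LYS2, LYS9 and LYS12 were called in all 4 of these fits, HIS4 and LYS20 in 3, LYS21 and BAT1 in 1, and SER3 and ARO3 in none. Both HU cultures lay above both C0 cultures in 17 genes and below in 11, which holds for 21.2% and 24.9% of all features. Of the 7 genes with Lys14 letters 3 rose (median log2 0.81), namely LYS9, LYS12 and LYS21, and of the 29 with TGACTC 4 rose (median 0.09). LYS20 and LYS2 rose without Lys14 letters in their windows.

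**Figure D2:**
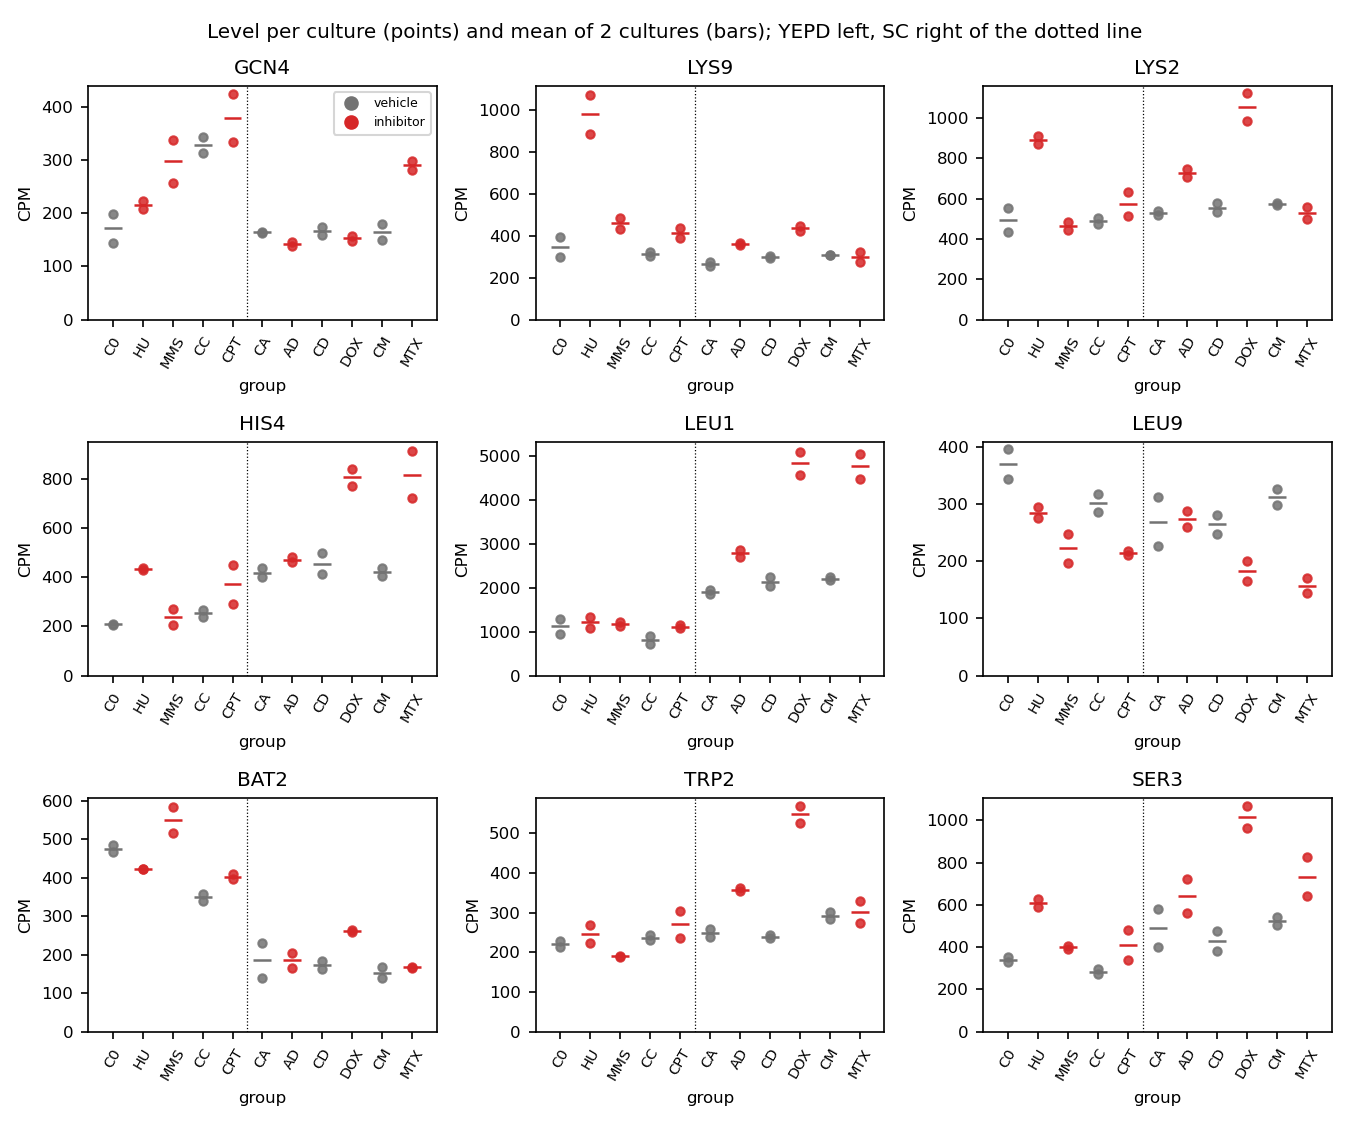
Points are the CPM of each of the 2 cultures in the 11 groups and bars their mean, for 9 genes, with vehicles grey, inhibitors red, and a dotted line between YEPD and SC groups. LYS9 is highest in HU (883 and 1071.5 CPM), BAT2 is higher in every YEPD group than in every SC group, and LEU1 is highest in DOX and MTX, at 4459 CPM or more in each of their cultures.

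MMS, which methylates DNA, was set against the same C0 cultures. In MMS 3 of the 44 genes rose (6.82%) and 1 fell (2.27%), against 6.07% and 4.7% of all features, so the shares were close to or under the background. GCN4 (YEL009C, chromosome V, 138918 to 139763) was at 144.5 and 198 CPM in C0 and at 338 and 257 in MMS (log2 0.79, SE 0.16; edgeR adjusted p = 0.00431). LYS20 rose by 0.82 (SE 0.2) and THR1, homoserine kinase, by 0.68 (SE 0.18) on the log2 scale. LEU9, an isopropylmalate synthase at the entry of leucine synthesis, was at 343 and 396 CPM in C0 and at 248 and 197 in MMS (log2 -0.73, SE 0.16; edgeR adjusted p = 0.00702). In these 4 genes the cultures of the groups did not overlap. In 11 genes the MMS cultures were both above those of C0 and in 12 both below, as for 26.4% and 27.2% of all features.

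Each of these calls was lost when some cultures were left out. None was called higher without C0 culture 1 or without MMS culture 1, and 6 were without C0 culture 2, while 3 were called without MMS culture 2. The number lower was 2 without C0 culture 1 and 0 without C0 culture 2 or MMS culture 2. LYS20, GCN4, THR1 and LEU9 were each called in 2 of the 4 fits.

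HU and MMS were compared directly, which drops the shared vehicle. In that test 6 of the 44 genes were higher in HU (13.6%) and none lower, against 2.41% and 2.11% of all features. An unadjusted p under 0.05 was reached by 10 higher and 3 lower genes, against 8.76% and 10.1% of all features, and DESeq2 called 7 and 1, against 3.59% and 3.36%. Lysine genes made up 5 of the 6: LYS9 (log2 HU minus MMS 1.09, SE 0.14; edgeR adjusted p = 0.00015), LYS12 (0.97), LYS2 (0.94), LYS21 (0.91) and LYS4 (0.58). The other was HIS4 (0.86, SE 0.18). LYS9 was at 432 and 484 CPM in MMS and LYS2 at 485 and 443, below both HU cultures. Without HU culture 1 the number was 3, without HU culture 2 it was 5, and without either MMS culture it was 4. LYS2, LYS9 and LYS12 were called in all 4 fits. LYS20, raised against C0 by both agents, was not among the genes that differed.

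CPT, an inhibitor of topoisomerase I, gave no call among the 44 genes by edgeR, against 1.91% of all features called higher and 0.898% lower. At an unadjusted p under 0.05 there were 7 higher and 3 lower, against 9.21% and 6.32% of all features. DESeq2 called 1 higher and 0 lower, against 3.36% and 1.64%. The smallest p was that of LYS1, at 18.4 and 12.6 CPM in CC and 24.6 and 28.8 in CPT (log2 0.79, SE 0.22; edgeR adjusted p = 0.0707). HIS4 was at 238 and 269 CPM in CC and at 293 and 450.0 in CPT (log2 0.55, edgeR adjusted p = 0.122). The median of the 44 genes was 0.04 and that of all features 0.01 on the log2 scale. All 7 lysine genes were above 0 (median 0.32, from 0.0 to 0.79 after rounding), as were 50.7% of all features. Without CPT culture 1, 2 genes were called higher. Both CPT cultures lay above both CC cultures in 11 genes and below in 10, as for 18.8% and 18.5% of all features. The 44 genes differed more between the CPT cultures (SD of their log2 ratio 0.29) than between those of any other group.

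The HU response minus the CPT response was not called for any of the 44 genes by edgeR, where 0.0% of all features were called in either direction. LYS9 had the smallest p of the lysine genes, with a log2 difference of responses of 1.1 (SE 0.19; edgeR adjusted p = 0.191). DESeq2 called 1 of the 44 genes higher and 0 lower, and 6 higher and 0 lower had an unadjusted p under 0.05. Over all features DESeq2 called 3, and 151 had an unadjusted p under 0.05. Without C0 culture 2, edgeR called 1 gene higher. The MMS response minus the CPT response was called for none of the 44 genes by edgeR or DESeq2. Over all features edgeR called 0.804% higher and 1.34% lower, and DESeq2 called 79 higher and 112 lower. At an unadjusted p under 0.05 there were 2 higher and 1 lower of the 44 genes, against 725 of all 6344 features. Without CPT culture 1, 1 gene was called lower.

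In SC, AD raised 2 genes each of the lysine, aromatic and serine branches. These are 6 of the 44 genes (13.6%), and none fell, against 2.02% of all features higher and 1.12% lower. The median log2 difference was 0.3, with 35 genes (79.5%) above 0, while the median of all features was -0.01 and 49.0% of them were above 0. In 29 genes both AD cultures lay above both CA cultures and in 2 below, which holds for 22.1% and 19.7% of all features. An unadjusted p under 0.05 was reached by 20 higher and 0 lower genes, against 10.6% and 8.91% of all features, and DESeq2 called 12 higher and 0 lower, against 3.86% and 2.92%.

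SER1, the phosphoserine aminotransferase, was at 356 and 370.1 CPM in CA and at 585 and 619 in AD (log2 0.73, SE 0.13; edgeR adjusted p = 0.00826). SER33, the second phosphoglycerate dehydrogenase, was at 237 and 229.7 CPM in CA and at 346 and 336 in AD (log2 0.55, SE 0.13). In tryptophan synthesis TRP2 and TRP3, the subunits of anthranilate synthase, rose by 0.52 (SE 0.13) and 0.59 (SE 0.11). TRP3 was at 308 and 324 CPM in CA and at 474 and 479 in AD. Next in that pathway, TRP4 was at 0.6 (edgeR adjusted p = 0.0628) and TRP5, tryptophan synthase, at 0.51 (edgeR adjusted p = 0.0577), neither of them called.

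Lysine synthesis had LYS1 at 16.3 and 13.6 CPM in CA and 26.2 and 27.8 in AD (log2 0.85, SE 0.22) and LYS12 at 306 and 294 CPM in CA and 469 and 422 in AD (log2 0.57, SE 0.14). All 7 lysine genes and all 4 serine genes had a positive difference. GCN4 itself was at 165 and 162 CPM in CA and 146.5 and 138 in AD (log2 -0.2, SE 0.16; edgeR adjusted p = 0.526). The 6 genes called all have TGACTC in their windows, as do 29 of the 44, and the median was 0.35 with TGACTC and 0.28 without. The number called was 2 without AD culture 1, 3 without CA culture 2 and 0 without AD culture 2 or without CA culture 1. TRP3 and SER1 were called in 2 of these 4 fits and the other 4 genes in none. None of the 44 genes was called when CA and AD were fitted alone, or from the second technical replicates alone. The shares of all features called in these other fits are not given here, so their counts cannot be set against a background.

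DOX, which intercalates into DNA and traps topoisomerase II, moved the 44 genes in both directions. It raised 20 (45.5%) and lowered 7 (15.9%), against 21.0% and 20.2% of all features. The median log2 difference was 0.34, and that of all features -0.02. Both DOX cultures lay above both CD cultures in 27 genes and below in 12, as for 39.2% and 40.7% of all features. The rises covered 3 of 4 serine, 3 of 5 threonine, 4 of 7 lysine, 4 of 9 aromatic, 4 of 11 branched-chain and 2 of 7 histidine genes.

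Of the 4 serine genes 3 rose in DOX. SER3 was at 475 and 382 CPM in CD and at 1066 and 963 in DOX (log2 1.24, SE 0.19; edgeR adjusted p = 0.000116). SER1 was at 375 and 396 CPM in CD and at 924 and 771 in DOX (log2 1.14, SE 0.13), and SER2, the phosphatase of the last step, at 60.7 and 65.6 in CD and 129 and 119 in DOX (log2 0.97, SE 0.26). SER33 was at 0.33 (edgeR adjusted p = 0.0516). The DOX cultures were above the CD cultures in all 4 genes.

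In tryptophan synthesis TRP2 was at 243 and 236 CPM in CD and at 570.0 and 527 in DOX (log2 1.2, SE 0.13; edgeR adjusted p = 7.94e-06). TRP5 was at 739 and 744 CPM in CD and at 1748 and 1599 in DOX (log2 1.17, SE 0.14). TRP3 rose by 0.59 (SE 0.11) and ARO1, the pentafunctional enzyme of the shared aromatic pathway, by 0.82 (SE 0.18). TRP4, between TRP2 and TRP5 in the pathway, was at 237 and 253 CPM in CD and at 301 and 217 in DOX, and its groups overlapped. At the pathway's entry ARO3 fell, from 559 and 535 CPM in CD to 384 and 294 in DOX (log2 -0.69, SE 0.12; edgeR adjusted p = 0.000262), and its paralog ARO4 was at -0.48 (edgeR adjusted p = 0.0519).

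Leucine genes moved apart in DOX. LEU1 (YGL009C, chromosome VII, 476313 to 478652) was at 2025 and 2235 CPM in CD and at 5090 and 4556 in DOX (log2 1.18, SE 0.15; edgeR adjusted p = 2.29e-05). LEU9 was at 281 and 248 CPM in CD and at 201 and 164.5 in DOX (log2 -0.53, SE 0.16), and its paralog LEU4 at 544 and 565 in CD and 769 and 704 in DOX (log2 0.41, edgeR adjusted p = 0.0825). LEU2, isopropylmalate dehydrogenase and a usual W303 marker, was at 115 and 165 CPM in CD and at 63.9 and 74.8 in DOX (log2 -1.02, SE 0.3; edgeR adjusted p = 0.0146). ILV5 fell by 0.68 (SE 0.19) on the log2 scale, while ILV2 and ILV6, the catalytic and regulatory subunits of acetolactate synthase, rose by 0.57 (SE 0.12) and 0.4 (SE 0.15). BAT2, the cytosolic branched-chain aminotransferase, rose by 0.59 (SE 0.18).

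The lysine branch in DOX was led by LYS1, at 12.7 and 12.4 CPM in CD and 33.0 and 37.6 in DOX (log2 1.5, SE 0.23; edgeR adjusted p = 9.98e-05). LYS2 was at 532 and 579 CPM in CD and 1125 and 984 in DOX (log2 0.92, SE 0.13), and LYS9 and LYS21 rose by 0.54 and 0.46. THR4, threonine synthase, was at 129 and 131 CPM in CD and 273 and 261 in DOX (log2 1.04, SE 0.12), THR1 rose by 1.02 (SE 0.18) and HOM6, homoserine dehydrogenase, by 0.51 (SE 0.16). HOM3, aspartate kinase, which stands at the entry of that pathway, fell by 0.48 (SE 0.17) on the log2 scale. In the histidine branch HIS4 and HIS5, the histidinol-phosphate aminotransferase, rose by 0.83 and 0.79, while HIS2, histidinol phosphatase, fell by 0.51 and HIS6, an isomerase, by 0.48. GCN4 mRNA was at 174 and 158 CPM in CD and 157 and 149 in DOX (log2 -0.12, SE 0.16; edgeR adjusted p = 0.564).

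With 1 culture left out between 15 and 18 genes were called higher. The number lower was 4 without either CD culture, 2 without DOX culture 2 and 7 without DOX culture 1. ARO3 was the fall called in all 4 fits. Rises called in all 4 included LYS1, LYS2, LYS9, SER1, SER3, TRP2, TRP3, TRP5, ARO1, LEU1, ILV2, THR1, THR4, HIS4 and HIS5, while ILV6 and LYS21 were called in none. TGACTC stands before 13 of the 20 genes that rose and 4 of the 7 that fell, and before 29 of the 44 genes. The median log2 difference in DOX was 0.34 with TGACTC and 0.22 without.

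MTX, an inhibitor of dihydrofolate reductase, raised GCN4 mRNA and a smaller set of enzymes. Among the 44 genes 7 rose (15.9%) and 4 fell (9.09%), against 10.8% and 9.0% of all features. Neither share stood far from the background in this fit of all cultures. Both MTX cultures lay above both CM cultures in 16 genes and below in 14, as for 32.7% and 35.7% of all features. GCN4 was at 150.3 and 179 CPM in CM and at 282 and 298 in MTX (log2 0.82, SE 0.16; edgeR adjusted p = 0.0028).

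LEU1 was at 2176 and 2230.2 CPM in CM and at 5046.5 and 4459 in MTX (log2 1.11, SE 0.15; edgeR adjusted p = 0.000167). HIS4 was at 405 and 436 CPM in CM and at 915 and 722 in MTX (log2 0.96, SE 0.18), and HIS5 rose by 0.72 (SE 0.17). BAT1 was at 374 and 372 CPM in CM and 660 and 631 in MTX (log2 0.79, SE 0.14). LYS1 was at 13.9 and 12.9 CPM in CM and 28.4 and 26.1 in MTX (log2 1.02, SE 0.22), and SER1 rose by 0.58 (SE 0.13). In each of these genes the MTX cultures were above the CM cultures.

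The falls were LEU9, ARO2, HOM2 and ARO3. LEU9 (YOR108W, chromosome XV, 523027 to 524841) was at 299 and 327 CPM in CM and at 171 and 144 in MTX (log2 -0.99, SE 0.16; edgeR adjusted p = 0.000746). ARO2, chorismate synthase, was at 639 and 652 CPM in CM and 446 and 420 in MTX (log2 -0.58, SE 0.11). HOM2 was at 1080 and 1168 CPM in CM and 760.4 and 622 in MTX (log2 -0.7, SE 0.14), and ARO3 fell by 0.46 (SE 0.12) on the log2 scale. LEU9 fell and LEU1 and BAT1 rose although all 3 have TGACTC and the Leu3 letters shown above.

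GCN4, HIS4, LEU1, BAT1, ARO2 and LEU9 were called with any 1 of the 4 cultures omitted, and the number lower was 2 without MTX culture 2. Without the second technical replicate of CM culture 2, which stood apart, 12 genes were called higher and 4 lower. All 11 calls held in that fit, with GCN4 at 1.04, LEU1 at 1.23 and LEU9 at -0.83 on the log2 scale. The compared groups alone gave 14 higher and 7 lower. The shares of all features called in these other fits are not given here, so their counts cannot be set against a background.

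The MTX and DOX responses were compared with each other, each against its own vehicle in the same medium. The MTX response was higher in 3 of the 44 genes (6.82%) and lower in 13 (29.5%), against 10.1% and 11.3% of all features. Among tryptophan genes the MTX response was lower for TRP2, with a difference of responses of -1.16 (SE 0.19, edgeR adjusted p = 0.000476). TRP5 was at -1.13 (SE 0.2) and TRP3 at -0.89 (SE 0.16), with ARO1 at -0.93 and ARO2 at -0.53. The level of TRP2 itself was 283 and 301.5 CPM in CM and 328 and 273 in MTX, and these groups overlapped. LYS2 was at -1.05, THR4 at -0.97, HOM2 at -0.85, LYS4 at -0.6, LYS9 at -0.59 and SER1 at -0.56, and the acetolactate synthase genes ILV6 and ILV2 were at -0.62 and -0.54. The MTX response was higher for GCN4 by 0.94 (SE 0.23, edgeR adjusted p = 0.00866), for ILV5 by 0.89 (SE 0.27) and for HIS2 by 0.84 (SE 0.19).

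For LEU1 (-0.07, SE 0.21) and HIS4 (0.14, SE 0.25) the difference between the MTX and DOX responses was within its standard error. LYS2, THR4, HOM2, TRP2, TRP3, TRP5, GCN4 and HIS2 were called with any 1 of the 8 cultures omitted. The number lower was 12 without MTX culture 1 and 11 without DOX culture 2, 7 without CD culture 2 or CM culture 1, and 6 without CD culture 1, DOX culture 1, CM culture 2 or MTX culture 2. The number higher was 2 or 3 in each of these 8 fits. Without the CM library that stood apart 4 genes were higher and 8 lower.

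**Figure D3:**
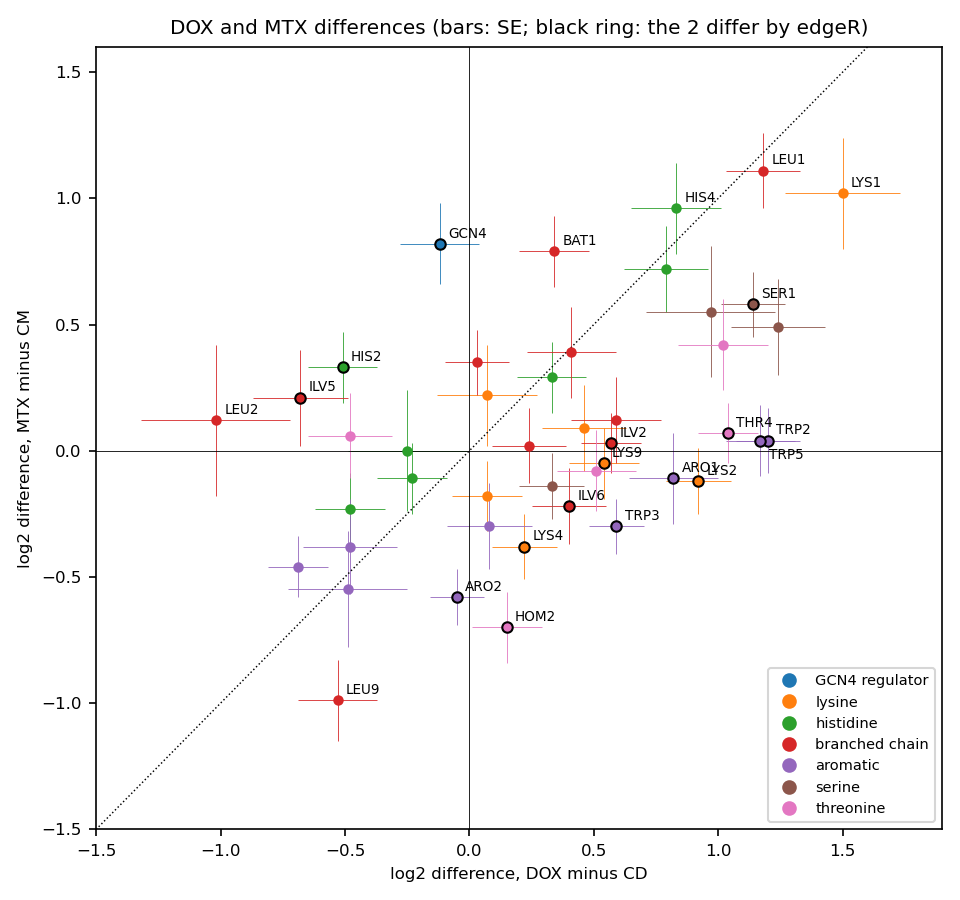
Each point is 1 of the 44 genes, with its log2 difference in DOX on the x axis and in MTX on the y axis, standard errors as bars and a dotted line of equal values, coloured by branch. Black rings mark the 16 genes whose responses differ by edgeR. TRP2, TRP5, THR4 and LYS2 lie far to the right near 0 on the y axis, GCN4 lies high near 0 on the x axis, and LEU1 and HIS4 lie near the line.

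Against AD, the MTX response was higher in 1 gene (2.27%), GCN4 (1.02, SE 0.23; edgeR adjusted p = 0.0131), and lower in 8 (18.2%), with 4.08% and 4.21% of all features called. The genes lower were LEU9 (-1.02, SE 0.23), HOM2 (-0.97), TRP4 (-0.91), TRP3 (-0.89), ARO2 (-0.88), LYS4 (-0.77), LYS12 (-0.75) and SER33 (-0.69). ARO2 and TRP3 were called with any 1 of the 8 cultures omitted. The number lower was 2 without MTX culture 2, 3 without AD culture 2, CA culture 1 or CM culture 2, 4 without CM culture 1, 6 without AD culture 1 or CA culture 2, and 7 without MTX culture 1. GCN4 was not called without AD culture 2, CM culture 1 or MTX culture 2. Without the CM library that stood apart, 4 genes were called higher and 4 lower.

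The AD response was higher than the DOX response in 2 genes, ARO3 (0.74, SE 0.17; edgeR adjusted p = 0.0178) and HIS2 (0.81, SE 0.19), and lower in THR4 (-0.62, SE 0.16) and TRP2 (-0.67, SE 0.19). These are 4.55% of the 44 genes in each direction, against 2.36% and 2.92% of all features. The number higher was 2 without AD culture 2, 1 without CA culture 2 or DOX culture 1 and 0 without any of the other 5 cultures. The number lower was 1 without either CA culture and 0 without any of the other 6. ARO3 was called in 3 of the 8 fits, HIS2 in 1 and THR4 and TRP2 in none.

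The water vehicles CD and C0 differ in medium, SC against YEPD. Of the 44 genes 6 were higher in SC (13.6%) and 5 lower (11.4%), against 8.87% and 11.2% of all features. BAT2 (YJR148W, chromosome X, 705744 to 706874) was at 484 and 466 CPM in C0 and at 162 and 184 in CD (log2 CD minus C0 -1.46, SE 0.18; edgeR adjusted p = 6.89e-05). HIS4 was at 212 and 206 CPM in C0 and 412 and 499.8 in CD (log2 1.12, SE 0.18), and LEU1 at 939 and 1294 in C0 and 2025 and 2235 in CD (log2 0.93, SE 0.15). LEU2 (0.95, SE 0.3), ARO3 (0.67, SE 0.12), HIS7 (0.52, SE 0.14) and LYS12 (0.5, SE 0.14) were also higher in SC. ARO4 (-0.57, SE 0.19), SER33 (-0.57, SE 0.13), LEU9 (-0.48, SE 0.16) and THR4 (-0.35, SE 0.12) were lower.

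BAT2, HIS4, ARO3 and LEU1 were called with any 1 of the 4 cultures omitted. The number higher was 3 without C0 culture 2 or CD culture 2, 5 without CD culture 1 and 6 without C0 culture 1. The number lower was 8 without C0 culture 1 and 1 without any of the other 3 cultures. The comparison shares C0 with HU and MMS and CD with DOX, so the values of these comparisons are not independent.

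Paralog pairs encode 5 of these enzymes, and the level of 1 copy over the other, per kilobase, differed between groups. These ratios are descriptions without a test. BAT1 over BAT2 was 0.558 in C0 and 1.91 in CD, and its highest mean was 3.7 in MTX, with culture values of 1.9 and 1.87 on the log2 scale. In YEPD groups the culture values ran from -1.08 to 0.28 and in SC groups from 0.49 to 1.9, without overlap. LEU4 over LEU9 was 1.78 in CM and 4.63 in MTX, and 2.05 in CD and 3.95 in DOX. With C0 at 1.32, it was 1.62 in HU and 1.58 in MMS. In each of these treatments the inhibitor cultures lay above the vehicle cultures. The mean of this ratio was also higher in CPT (2.38, with 1.68 in CC) and AD (2.48, with 2.12 in CA), where the cultures overlapped.

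SER3 over SER33 was 0.975 in C0, 2.08 in HU and 1.37 in MMS, and 0.8165 in CC and 1.49 in CPT. In SC this ratio was 1.8 in CD and 3.41 in DOX, and 2.16 in CM and 3.34 in MTX. Only in AD was its mean below that of the vehicle, with 2.07 in CA and 1.86 in AD. ARO3 over ARO4 was below 1 in C0 (0.765) and CC (0.727) and above 1 in each SC group, from 1.42 in MTX to 1.8 in CD. In the other YEPD groups it was 1.05 in HU, 1.14 in MMS and 0.903 in CPT. LYS20 over LYS21 was 0.488 in C0 and 0.935 in MMS, and between 0.246 and 0.321 in the SC groups. Identity of the coding sequences was 66.6% for ARO3 and ARO4, 72.2% for BAT1 and BAT2, 79.4% for LEU4 and LEU9 and 82.8% for SER3 and SER33.

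**Figure D4:**
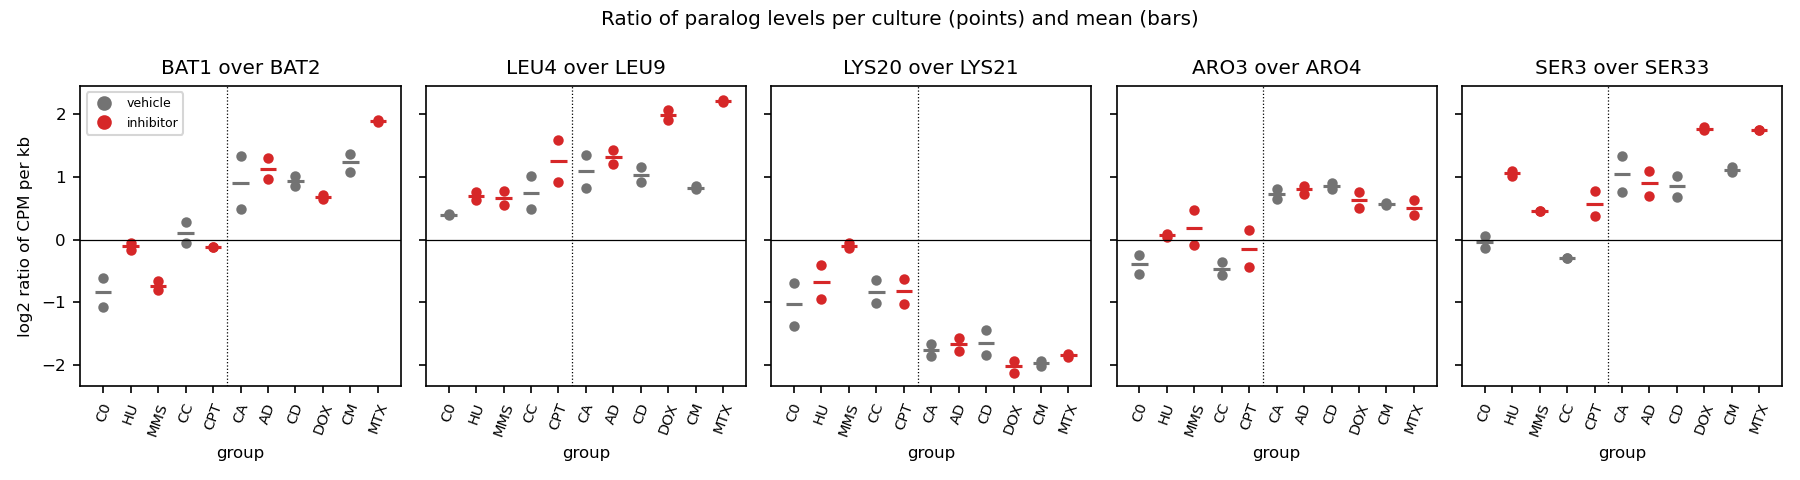
Points are the log2 ratio of CPM per kb of the first over the second copy in each of the 2 cultures of the 11 groups and bars their mean, with vehicles grey, inhibitors red, a solid line at equal levels and a dotted line between YEPD and SC. BAT1 over BAT2 is lower in every YEPD culture than in every SC culture, and LEU4 over LEU9 is highest in MTX and DOX.

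The GCN4 mRNA level of the cultures spanned from 138 to 425 CPM. It was lowest in SC without MTX, where the 10 cultures of CA, AD, CD, DOX and CM lay between 138 and 179 CPM. The C0 cultures (144.5 and 198 CPM) overlapped these. The HU cultures were at 224 and 208 CPM (log2 0.33, edgeR adjusted p = 0.33). MTX (282 and 298), MMS (338 and 257), CC (343.5 and 313) and CPT (333 and 425 CPM) followed, and each of these 4 groups overlapped the next. CPT minus CC was 0.21 (SE 0.16; edgeR adjusted p = 0.594), and the difference between the NaOH vehicle CC and the water vehicle C0 was not tested here.

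Of the 3 usual marker genes, HIS3 and TRP1 were at low levels. HIS3 lay between 8.56 and 18.8 CPM and TRP1 between 7.86 and 20.5 CPM in all 22 cultures, and neither was called in any treatment. HIS3 was at -0.51 in HU (edgeR adjusted p = 0.295) and TRP1 at -0.55 in MTX (edgeR adjusted p = 0.104). LEU2 lay between 37.2 and 172 CPM, and its cultures of 1 group could differ widely, with 88.9 and 39.6 CPM in MMS.

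Other genes of these pathways were read beside the 44. Of 20 further amino acid enzymes 10 rose and 2 fell in DOX, against 21.0% and 20.2% of all features. In MTX 3 rose and 3 fell, against 10.8% and 9.0%. In DOX the largest rise of the 20 was that of CHA1 (log2 2.1, SE 0.54). Others were ASN2, an asparagine synthetase (log2 0.7), PRO3 of proline synthesis (0.76) and ARO9, an aromatic aminotransferase (1.37), while GLN1, glutamine synthetase, fell by 0.94. In MTX the serine hydroxymethyltransferase SHM2 rose by 2.04, ARO9 by 1.2 and GLN1 by 0.61, while ASN2, PRO1 and PRO2 were at -0.57, -0.49 and -0.53. In MMS GDH3 and GLN1 rose and none fell, against 6.07% and 4.7% of all features. In AD ASN2 rose and GLN1 fell, against 2.02% and 1.12%. None of the 20 was called in HU, against 2.63% and 0.93% of all features, or in CPT, against 1.91% and 0.898%.

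Of 12 regulators, PCL5, the cyclin that promotes Gcn4 turnover, rose by 0.99 (SE 0.18; edgeR adjusted p = 0.00529) in HU. GCN2 rose in DOX (0.56) and was lower in MTX (-0.41) and MMS (-0.39). GCN1, which activates Gcn2, and CHA4, an activator of serine and threonine breakdown, rose in DOX by 0.65 and 0.49, and GCN20, the partner of Gcn1, was at -0.54 in MTX (edgeR adjusted p = 0.00665). The log2 difference of LEU3 lay between -0.32 and 0.2 over the 6 treatments and that of LYS14 between -0.42 and 0.09, and neither passed the threshold in any.

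In the authors' deposited tables, made with DESeq2, every call in the 6 treatments given here was also past an adjusted p of 0.05 with the same direction. Those tables hold more calls, among the 44 genes and among all features alike. In the authors' deposited table for HU 12 of the 44 genes were higher and 3 lower, against 9.19% and 8.02% of the features with an adjusted p. In the authors' deposited table for MMS there were 5 and 5 (15.6% and 14.9% of features), for CPT 8 and 3 (6.75% and 4.79%) and for AD 21 and 0 (9.94% and 8.4%). In the authors' deposited table for DOX there were 25 and 9 (29.8% and 29.9% of features), and for MTX 14 and 7 (20.6% and 17.8%).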

How the data were processed

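RNA sequencing libraries (44, of 22 cultures in 11 groups) come from 11 deposited tables of raw counts, reads per feature of the sacCer3 build, which per the file headers the authors made in featureCounts 1.6.0. The recorded command sets no strand option, so antisense reads cannot be told apart, and reads over more than 1 feature were left out. The submitters' processing notes name Bowtie2, an aligner, for which the sources used here give no version. Names of the alignment files in the headers hold mskDup and non-redundant, and removal of duplicate reads, if made, lowers high counts. The authors' deposited DESeq2 tables hold log2 fold changes and adjusted p-values per gene, used only for the counts of calls credited to them.

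The technical replicates of each culture were added up. All 22 cultures entered 1 fit, with group as the only term, in edgeR 4.0.16 (R 4.3.3; TMM scaling, filterByExpr with minimum count 10 and minimum total 15, robust quasi-likelihood F test), with Benjamini-Hochberg adjustment over 6344 features. The coefficient of variation between cultures was 0.156 and the fit had 11 residual degrees of freedom. Standard errors were derived from the log2 difference and the square root of F. CPM use TMM-scaled totals. The procedure was tested on simulated counts. DESeq2 1.42.0, RLE scaling, no filter, the compared groups alone, a replicate block and the omission of each culture were alternatives. The technical replicates taken alone, the CM library left out, a block within each vehicle set and crossed blocks were added after seeing the data.

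All 44 genes were matched by systematic name and had the same coordinates in RefSeq R64, from which sequences were read, and paralogs were aligned with Biopython 1.88. Genes named are GCN4, the paralog pairs, the marker genes LEU2, HIS3 and TRP1, up to 12 called genes with the smallest p in each direction of a comparison, and the extremes of a branch. Other genes named for DOX were chosen after their values were seen, as were the examples of the further lists. The genes, lists and comparisons were chosen with earlier results of these data known.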

Additional observations from a re-analysis of the deposited data

How the results depend on the processing

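Of 74 called values of single genes in the 6 treatments, CD minus C0 and HU minus MMS, 74 stayed called with DESeq2, 74 without the filter, 71 with RLE scaling, 69 with the replicate block, 66 with the compared groups alone, 67 with first and 48 with second technical replicates alone, and none changed direction. Over the fits that left out 1 culture 190 values stayed called and 106 did not. Of the 29 called differences between responses, 29 stayed called with DESeq2, RLE scaling or no filter, 28 with the replicate block, 20 with the compared groups alone, 26 with first and 7 with second technical replicates alone, and none changed direction. With 1 culture left out 121 of these values stayed called and 111 did not, and of those with MTX 16 stayed called and 9 did not without the CM library. The cause of these changes was not tested. With 2 cultures a group, small differences are below what the depth and spread allow to be called.

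The counts of genes called that moved by over 1.5 times were as follows. DESeq2 gave 1 higher in CPT, 12 higher in AD, 1 lower in HU minus MMS, 1 higher in HU minus CPT response, 4 lower in AD minus DOX response and 2 higher in MTX minus AD response. The compared groups alone gave 0 higher in AD, 14 higher and 7 lower in MTX, 8 lower in CD minus C0, 1 lower in HU minus MMS, 0 higher and 0 lower in AD minus DOX, 2 higher and 3 lower in MTX minus AD and 6 higher in MTX minus DOX response. First technical replicates alone gave 3 lower in MMS, 2 lower in CPT, 1 higher in HU minus CPT, 5 lower in AD minus DOX and 3 higher in MTX minus AD. Second technical replicates alone gave 0 lower in MMS, 0 higher in AD, 3 lower in DOX, 2 lower in CD minus C0, 0 higher and 0 lower in AD minus DOX, 0 higher and 1 lower in MTX minus AD, and 1 higher and 5 lower in MTX minus DOX. Without the CM library 12 were higher in MTX, 4 higher and 4 lower in MTX minus AD and 8 lower in MTX minus DOX. The mean of the SC vehicles minus that of the YEPD vehicles gave 10 higher and 11 lower in place of 6 and 5 for CD minus C0.

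Cultures share numbers across groups, and nothing in the labels pairs them. Deviations of same-numbered cultures correlated over genes at 0.34 for HU and C0, 0.06 for MMS and C0, 0.49 for CPT and CC, 0.71 for AD and CA, 0.16 for DOX and CD, -0.24 for MTX and CM and -0.14 for CD and C0. The replicate block over all groups gave 8 higher in HU and 3 lower in CD minus C0 and 1 lower in AD minus DOX. A replicate block within each vehicle set gave 1 lower in HU, 2 lower in MMS, 5 higher and 1 lower in CPT, 15 higher in AD and 1 lower in HU minus MMS. A crossed replicate block gave 15 higher and 9 lower in MTX and 8 lower in CD minus C0.

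Leaving out 1 culture gave 4 to 6 higher in HU, 0 to 6 higher and 0 to 2 lower in MMS, 0 to 2 higher in CPT, 0 to 3 higher in AD, 15 to 18 higher and 2 to 7 lower in DOX, 5 to 7 higher and 2 to 4 lower in MTX, and 3 to 6 higher and 1 to 8 lower in CD minus C0. It gave 3 to 5 higher in HU minus MMS, 0 to 1 higher in HU minus CPT, 0 to 1 lower in MMS minus CPT, 0 to 2 higher and 0 to 1 lower in AD minus DOX, 0 to 1 higher and 2 to 7 lower in MTX minus AD, and 2 to 3 higher and 6 to 12 lower in MTX minus DOX response.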
